A study of Homo sapiens with 9 samples.

Results

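The genes described here were *HRAS*, *NRAS*, *BRAF*, *ARAF*, *MAP2K1*, *MAP2K2* and *MAPK3*, which encode RAS GTPases and the RAF, MEK and ERK kinases that act below them. They were taken as a list of names and are 7 of the 60708 genes in the files, and each name matched 1 gene identifier. The 9 RNA-sequencing libraries came from untreated cells labelled MDA-MB-231, an established human line of triple-negative breast cancer. Of these, 3 libraries were labelled wild type (WT), and 3 each came from CS16 and CS19, which the labels give as single-cell clones with the genotype *SNAI1*-KO. *SNAI1* encodes a zinc finger repressor of epithelial genes, and the study targeted it with CRISPR/Cas9 plasmids and puromycin selection. Each KO line was thus 1 clone, and nothing in the labels says whether libraries of a clone came from separate cultures, so p-values measure the spread between these libraries. The question was how transcripts of the RAS cascade differed between the clones and the WT cells.

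RAS proteins are small GTPases at the inner face of the plasma membrane. When bound to GTP they recruit RAF kinases, RAF phosphorylates MEK (encoded by *MAP2K1* and *MAP2K2*), and MEK phosphorylates ERK (*MAPK3* encodes ERK1), which acts on transcription factors and other kinases. MDA-MB-231 cells are known for activating mutations in this cascade, and active ERK induces its own inhibitors of the DUSP, SPRY and SPRED families. Activity runs mainly through GTP loading and phosphorylation, which counts of RNA do not measure.

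Some measurements bear on the labels and on every difference given here. *SNAI1* itself was not lower in the clones, with 16 to 38 counts in the WT libraries, 26 to 49 in CS16 and 57 to 94 in CS19, and the log2 fold change of the clones together was 0.89 (edgeR, adjusted p = 0.0836). It was higher in CS19 than in WT (1.32, adjusted p = 0.0323, no overlap) and lower in CS16 than in CS19 (-0.92, adjusted p = 0.00724). By quantitative PCR, the study reported lower *SNAI1* mRNA at each exon in these clones, and it detected no SNAI1 protein in them. It also described deletions within the gene in its aligned reads. A count over the whole gene does not see a small deletion within it. *CDKN2A* and *MTAP*, neighbours on the short arm of chromosome 9 that MDA-MB-231 is known to have lost, had 0 counts in the 3 WT libraries, where 3 counts correspond to a counts-per-million value (CPM) of 0.137 to 0.152. In the 6 libraries labelled *SNAI1*-KO they had 1106 to 1575 and 2139 to 3137 counts. Summed over 8 markers of basal B breast cancer lines, the level was 5908 to 6429 CPM in WT and 513 to 553 CPM in the clones, with 8 of 8 lower, and *CD44*, a defining marker, was at or under 3 counts in each clone library. Over 12 luminal markers the sum was 1641 to 2416 CPM in WT and 331 to 396 CPM in the clones, with 4 higher and 5 lower of 10 tested, *PGR* and *FOXA1* at or under 3 counts in WT, and *PGR* and *KRT19* in the clones. Over 8 embryonic kidney markers it was 59.4 to 82.8 CPM in WT and 114.6 to 139 CPM in the clones, with 4 higher and 1 lower of 6 tested. Of 8 haematopoietic markers, 6 or 7 were at or under 3 counts in every group, and the sum was 0.346 to 0.915 CPM in WT and 2.47 to 3.43 CPM in the clones. The same edgeR test called 31.0% of all genes higher and 32.5% lower in the clones. The genotype, the clone and whatever else separates these cells from the WT libraries cannot be told apart, so groups are named as labelled. In RNA from whole cultures, fewer cells that express a gene and less RNA per cell cannot be told apart either.

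Among the WT libraries, WT-2 stood apart. Its log2 CPM correlated at 0.954 and 0.949 with WT-1 and WT-3, which correlated at 0.990 with each other. Differences of the clones together from WT are therefore also given without it, for the 7 genes and for other genes where it moves the fold by over 1.5 times. For each clone they are given for *HRAS*, *ARAF*, *MAP2K1*, *MAP2K2* and *MAPK3*.

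*HRAS*, *ARAF*, *MAP2K1* and *MAP2K2* were lower and *MAPK3* was higher in the 6 clone libraries than in the 3 WT libraries, while *NRAS* and *BRAF* did not pass the test. The plot of CPM by library shows the 7 genes. CPM were normalized by TMM, and the test was edgeR's quasi-likelihood test over 19631 genes with Benjamini-Hochberg adjusted p below 0.05. Of all genes tested, 63.5% passed, 31.0% higher and 32.5% lower, so 5 of 7 genes past the test, 1 higher and 4 lower, is a share near that of the whole transcriptome. For the same 5 genes no clone library overlapped a WT library in CPM, against 58.3% of all genes. No gene reached the study's cut-offs (the adjusted p together with a log2 change of 2 or more, up or down) with edgeR or with DESeq2, against 26.9% of all genes (12.6% higher, 14.3% lower). The same 5 genes had an unadjusted p below 0.05, as did at least the 63.5% of all genes past the adjusted one. The median log2 fold change of the 7 genes was -0.50, beside -0.0040 over all genes. Without WT-2 the same counts, 1 higher and 4 lower, stood beside 67.0% of all genes (33.9% higher, 33.2% lower).

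**Figure D1:**
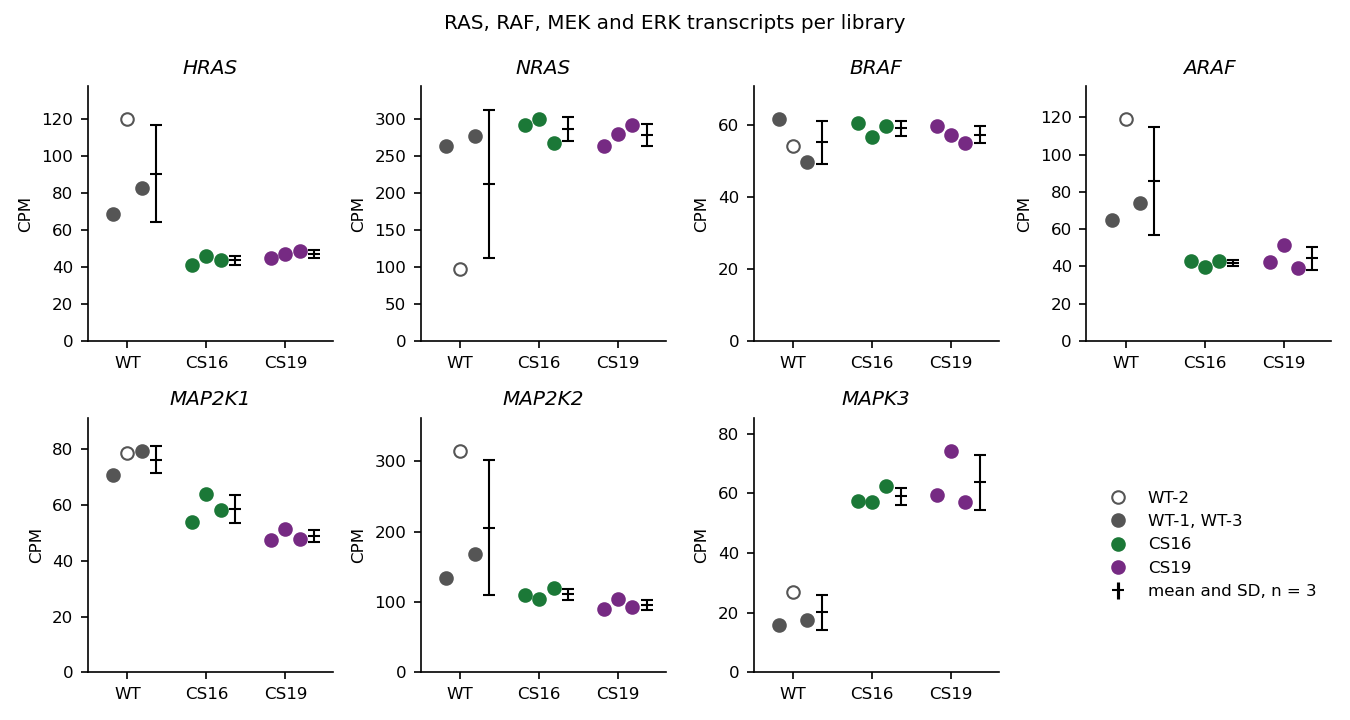
CPM (TMM, y axis from 0) of each of the 7 genes in the 3 WT, 3 CS16 and 3 CS19 libraries, 1 point per library, with the mean and SD of each group beside the points and WT-2 as an open circle. *HRAS* lies between 68.7 and 119.8 CPM in WT and between 41.3 and 48.8 CPM in the clones, *MAPK3* between 16.0 and 26.9 CPM in WT and between 57.1 and 74.3 CPM in the clones, and the WT-2 point is far from the other WT points for *HRAS*, *NRAS*, *ARAF*, *MAP2K2* and *MAPK3*.

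The start regions of 4 of the genes are shown for their GC boxes and base composition: *HRAS* and *MAP2K2*, which were lower in the clones, *MAPK3*, which was higher, and *BRAF*, which did not pass the test. RefSeq windows on GRCh38.p14 were found for all 7 genes, and the bases shown lie before the RefSeq start and outside all exons of gencode release 44. For *HRAS*, *BRAF* and *MAPK3* they fall between exons, since gencode places the gene's first base further upstream. They are written 5′ to 3′ on the strand of the gene. Capitals mark the GC box GGGCGG on either strand, bound by factors of the SP family, and in *MAPK3* also the E-box CACGTG.
HRAS (chr11:535577-535826, minus strand): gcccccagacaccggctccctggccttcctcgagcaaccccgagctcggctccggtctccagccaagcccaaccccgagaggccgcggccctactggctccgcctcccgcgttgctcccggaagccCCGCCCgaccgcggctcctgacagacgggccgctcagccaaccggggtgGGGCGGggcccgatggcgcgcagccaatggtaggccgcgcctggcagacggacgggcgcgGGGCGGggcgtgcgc
BRAF (chr7:140924269-140924518, minus strand): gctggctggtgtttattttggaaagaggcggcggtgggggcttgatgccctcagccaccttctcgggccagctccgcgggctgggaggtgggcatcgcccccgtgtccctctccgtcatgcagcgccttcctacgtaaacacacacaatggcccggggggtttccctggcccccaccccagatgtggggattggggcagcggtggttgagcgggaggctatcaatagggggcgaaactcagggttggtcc
MAP2K2 (chr19:4124123-4124372, minus strand): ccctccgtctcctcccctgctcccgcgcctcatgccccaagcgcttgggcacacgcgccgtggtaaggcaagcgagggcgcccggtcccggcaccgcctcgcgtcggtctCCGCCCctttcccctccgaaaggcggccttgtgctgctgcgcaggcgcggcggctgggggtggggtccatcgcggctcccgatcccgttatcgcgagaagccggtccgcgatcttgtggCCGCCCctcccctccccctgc
MAPK3 (chr16:30123310-30123470, minus strand): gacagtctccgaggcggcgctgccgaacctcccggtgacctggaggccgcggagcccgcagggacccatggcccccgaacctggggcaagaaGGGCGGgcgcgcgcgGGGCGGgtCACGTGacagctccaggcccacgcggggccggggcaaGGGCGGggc

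Over the 250 bases before the start, GC content was 77.2% for *HRAS*, 64.8% for *BRAF*, 74% for *MAP2K2* and 80.4% for *MAPK3*, and 59.2%, 54.4% and 71.2% for *ARAF*, *NRAS* and *MAP2K1*. The GC box was found 3 times for *HRAS*, *NRAS* 2 times, *MAP2K1* 3 times, *MAP2K2* 2 times and *MAPK3* 6 times, and not for *BRAF* or *ARAF*, while 42.6% of 35116 RefSeq windows of the same length hold it. The E-box CAGGTG, searched on both strands like the other motifs and the core that SNAI1 is known to bind, was found once for *MAP2K1*, at position -228 from the start, and in a window of an alternative start of *MAP2K2*, against 17.5% of all windows. The E-box CACGTG was found at position -57 for *NRAS* and -135 for *MAPK3*, against 6.34% of all windows. The CCAAT box was found for *HRAS*, *BRAF*, *ARAF* and *MAP2K1*, against 32% of all windows, and no hit overlapped another. These are matches of letters, present in genes that were lower, higher and not different.

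*HRAS* (ENSG00000174775.18, chr11:532242-537321, minus strand), a RAS isoform that cycles between the plasma membrane and the Golgi through removable palmitoyl groups, was measured at 68.7, 119.8 and 82.9 CPM in the WT libraries. CS16 libraries had 41.3, 46.1 and 43.6 CPM, and CS19 libraries 44.6, 47.0 and 48.8 CPM. All clone libraries lay below all WT libraries. The log2 fold change was -0.9998 (SE 0.17, adjusted p = 0.000259), a 2.00-fold lower level. Without WT-2 it was -0.75 (adjusted p = 2.87e-05).

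*NRAS* (ENSG00000213281.5, chr1:114704469-114716771, minus strand), the isoform named for its discovery in neuroblastoma, was measured at 263, 96.9 and 277 CPM in WT, at 291, 299 and 267 CPM in CS16 and at 263, 280 and 291 CPM in CS19. The low value was that of WT-2, and the other WT libraries lay within the range of the clones. The log2 fold change of 0.41 (SE 0.27, adjusted p = 0.204) did not pass, and without WT-2 it was 0.06 (adjusted p = 0.598).

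*BRAF* (ENSG00000157764.14, chr7:140719327-140924929, minus strand) encodes the RAF kinase with the highest basal activity. With all 9 libraries it had the smallest log2 fold change of the 7 genes between the clones together and WT. It was measured at 61.7, 54.3 and 49.7 CPM in WT, 60.6, 56.9 and 59.9 CPM in CS16 and 59.8, 57.3 and 55.1 CPM in CS19. Every clone library lay within the WT range, and the log2 fold change was 0.08 (SE 0.12, adjusted p = 0.607) and 0.06 without WT-2. *ARAF* (ENSG00000078061.14, chrX:47561205-47571908, plus strand), the RAF kinase with the lowest basal activity, was measured at 64.9, 119 and 73.8 CPM in WT, 43.1, 39.9 and 42.7 CPM in CS16 and 42.3, 51.3 and 39.3 CPM in CS19. No clone library reached the lowest WT library. The log2 fold change of *ARAF* was -0.99 (SE 0.19, adjusted p = 0.000625) and -0.69 without WT-2 (adjusted p = 0.000131).

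*MAP2K1* (ENSG00000169032.10, chr15:66386837-66491544, plus strand) and *MAP2K2* (ENSG00000126934.14, chr19:4090321-4124122, minus strand) encode the dual-specificity kinases MEK1 and MEK2. *MAP2K1* was measured at 70.6, 78.7 and 79.4 CPM in WT, 53.7, 63.8 and 58.2 CPM in CS16 and 47.4, 51.3 and 47.9 CPM in CS19. WT-2 lay between the other WT libraries here. The log2 fold change was -0.50 (SE 0.14, adjusted p = 0.00700), the smallest of the 5 that passed, and -0.49 without WT-2. *MAP2K1* no longer passed when no filter on low counts was applied (log2 fold change -0.39, adjusted p = 0.0995). *MAP2K2* was measured at 133, 315 and 169 CPM in WT, 109, 104 and 119 CPM in CS16 and 89.7, 104 and 92.8 CPM in CS19. The WT-2 value exceeded the other WT values by 2.08-fold on average, and all clone libraries lay below all WT libraries. The log2 fold change of *MAP2K2* moved from -0.99 (SE 0.23, adjusted p = 0.00257) to -0.55 without WT-2 (adjusted p = 0.00163).

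*MAPK3* (ENSG00000102882.12, chr16:30114105-30123506, minus strand) encodes ERK1. It was measured at 16.0, 26.9 and 17.5 CPM in WT, 57.6, 57.1 and 62.4 CPM in CS16 and 59.6, 74.3 and 57.1 CPM in CS19. The lowest clone library was above the highest WT library. *MAPK3* rose 3.05-fold (log2 fold change 1.61, SE 0.20, adjusted p = 2.31e-05), the largest difference of the 7 genes in either direction, and by 1.87 on the log2 scale without WT-2.

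Each clone was also compared with WT in a fit of its own; these comparisons share the 3 WT libraries. In CS16, 3 of the 7 genes passed (2 lower, 1 higher), where 55.0% of all genes did (26.7% higher, 28.3% lower). The log2 fold changes were -1.02 for *HRAS* (SE 0.24, adjusted p = 0.00914), -1.01 for *ARAF* (SE 0.26, adjusted p = 0.0138) and 1.58 for *MAPK3* (SE 0.25, adjusted p = 0.00131). *MAP2K1* at -0.35 (adjusted p = 0.112) and *MAP2K2* at -0.86 (adjusted p = 0.0580) did not pass. Without WT-2, 5 genes passed in CS16, where 72.7% of all genes did, with *MAP2K1* at -0.36 (adjusted p = 0.00463) and *MAP2K2* at -0.45 (adjusted p = 0.000885) among them. *HRAS* was then at -0.80, *ARAF* at -0.73 and *MAPK3* at 1.82. Without CS16 replicate 2, *ARAF* was lost (adjusted p = 0.0662) and 2 genes passed, while calls over all genes fell from 10237 to 8476. In CS19, 5 genes passed (4 lower, 1 higher), where 52.4% of all genes did (26.1% higher, 26.4% lower), with -0.91 for *HRAS* (SE 0.24, adjusted p = 0.0149), -0.92 for *ARAF* (SE 0.27, adjusted p = 0.0245), -0.60 for *MAP2K1* (SE 0.16, adjusted p = 0.0168), -1.07 for *MAP2K2* (SE 0.33, adjusted p = 0.0283) and 1.70 for *MAPK3* (SE 0.26, adjusted p = 0.00119). Without WT-2, CS19 was at -0.68 for *HRAS*, -0.63 for *ARAF*, -0.60 for *MAP2K1*, -0.64 for *MAP2K2* and 1.95 for *MAPK3* on the log2 scale. With CS19 replicate 1, 2 or 3 left out, *MAPK3* still passed and the 4 lower genes had adjusted p between 0.0545 and 0.114. Those fits held fewer libraries.

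Between the clones, 2 of the 7 genes passed, both MEK genes and both higher in CS16, where 27.9% of all genes passed, 14.9% in that direction. *MAP2K1* had a log2 fold change of 0.26 (SE 0.08, adjusted p = 0.0192) and the 3 CS16 libraries lay above the 3 CS19 libraries. *MAP2K2* had 0.21 (SE 0.07, adjusted p = 0.0452), and its ranges overlapped, at 104 to 119 CPM in CS16 and 89.7 to 104 CPM in CS19. Neither call held in a shared fit of the 3 groups (adjusted p = 0.453 and 0.876), and each was lost without CS16 replicate 3, CS19 replicate 1 or CS19 replicate 3, *MAP2K1* also without CS16 replicate 2 and *MAP2K2* also without CS16 replicate 1. The other 5 genes differed by at most 0.11 on the log2 scale, with SE of 0.07 to 0.09. The plot of differences between groups shows the comparisons together.

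**Figure D2:**
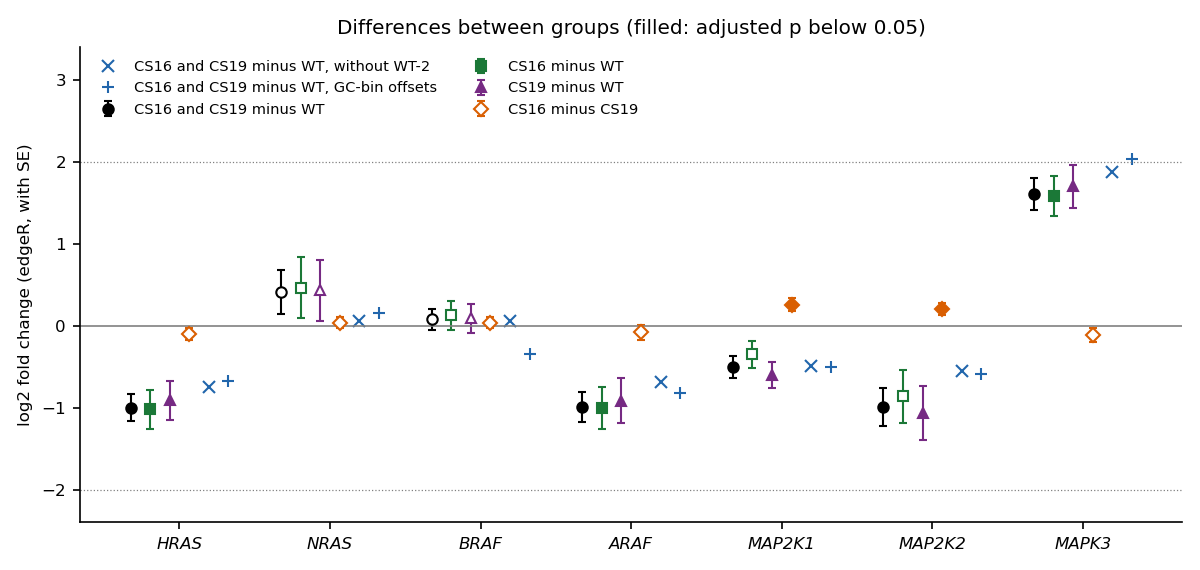
Log2 fold changes (y axis) with their SE from edgeR for each gene (x axis) in the clones against WT together, CS16 against WT, CS19 against WT and CS16 against CS19, filled where the adjusted p was below 0.05, with crosses for the clones against WT without WT-2 and plus signs for the fit with GC offsets. *HRAS*, *ARAF*, *MAP2K1* and *MAP2K2* lie below 0 and *MAPK3* above 0 in the comparisons with WT, with a dotted line at a log2 fold change of 2 that the plus sign for *MAPK3* crosses at 2.03.

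The deviation of WT-2 moved with base composition. Across 9989 genes with at least 3 CPM in every library, the log2 ratio of WT-2 to the mean of WT-1 and WT-3 correlated with the GC content of a gene's exons (Spearman 0.764 across genes, which are not independent replicates), where WT-1 against WT-3 gave -0.170. The 7 genes span this range. Exonic GC was 37.4% for *NRAS*, 38.1% for *BRAF*, 50.5% for *MAP2K1*, 53.5% for *ARAF*, 62.0% for *MAPK3*, 63.5% for *MAP2K2* and 65.7% for *HRAS*. WT-2 gave 0.359 times the mean of WT-1 and WT-3 for *NRAS*, but 1.58 times for *HRAS*, 1.61 times for *MAPK3*, 1.72 times for *ARAF* and 2.08 times for *MAP2K2*. *MAP2K1*, in the middle of the GC range, was at 1.05 times. *BRAF* departed from its GC bin, with a log2 ratio of -0.04 where the median of genes near its GC content was -0.998. *HRAS*, at 0.66, lay below the middle 50% of the bin with the highest GC content, which began at 0.89. *MAPK3*, at 0.685, lay just below the middle 50% of the bin nearest its GC content, which began at 0.689. For *NRAS*, at -1.48, the middle 50% of the nearest bin began at -1.28.

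**Figure D3:**
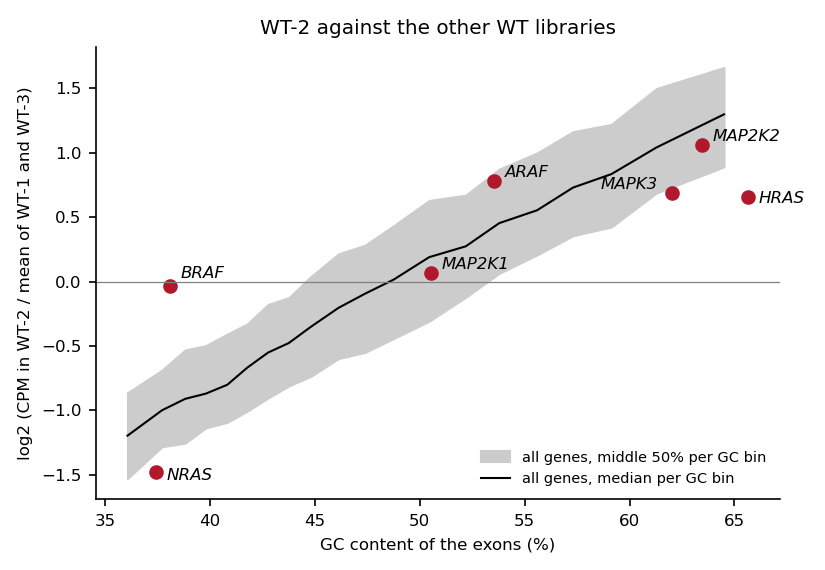
Log2 ratio of the CPM in WT-2 to the mean of WT-1 and WT-3 (y axis) against exonic GC content in percent (x axis). The line and band give the median and middle 50% of all genes in 20 GC bins, and the points the 7 genes. The median climbs from -1.20 in the lowest bin to 1.30 in the highest. *BRAF* lies above the band, *NRAS* and *MAPK3* lie just below it, and *HRAS* lies at the right, below the band's end.

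A fit with offsets for 20 bins of GC content in each library was added after these values were seen. It kept the 5 calls of the clones against WT, where 68.3% of all genes passed, with -0.68 for *HRAS*, -0.82 for *ARAF*, -0.50 for *MAP2K1*, -0.58 for *MAP2K2* and 2.03 for *MAPK3*. *MAPK3* then met the study's cut-offs, as 26.2% of all genes did, and also did so in CS16 at 2.10 (26.2% of all genes) and in CS19 at 2.04 (25.7% of all genes). *BRAF* turned from 0.08 to -0.35 without passing (adjusted p = 0.101), and *NRAS* was at 0.16 (adjusted p = 0.307). Whether the GC dependence of WT-2 came from the cells or from the library was not tested.

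The balance between related genes was read within each library as the log2 ratio of their counts per kilobase, so that no scaling between libraries enters. In WT the *HRAS* to *NRAS* ratio was -1.11, 1.14 and -0.91, while it was -1.99, -1.87 and -1.79 in CS16 and -1.73, -1.74 and -1.75 in CS19. By these lengths *HRAS* exceeded *NRAS* in WT-2 alone, whereas with canonical transcript lengths it did so in each WT library (136 against 129, 245 against 49.0 and 134 against 110.4 TPM). The mean was -0.29 ± 1.24 (SD, n = 3) in WT and -1.81 ± 0.10 (SD, n = 6) in the clones, a difference of -1.52 (two-sided exact permutation test, p = 0.0238, adjusted p = 0.0476 over the 4 pairs tested), where 0.0238 is the smallest p that 6 against 3 libraries allow. Without WT-2 the difference was -0.80.

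The *ARAF* to *BRAF* ratio was 2.85, 3.91 and 3.35 in WT, 2.29, 2.27 and 2.29 in CS16 and 2.28, 2.62 and 2.29 in CS19. All clone libraries were below all WT libraries, with a difference of -1.03 (exact permutation test, p = 0.0238, adjusted p = 0.0476 over the 4 pairs) and of -0.76 without WT-2. The *MAP2K1* to *MAP2K2* ratio was -0.10, -1.18 and -0.27 in WT and -0.22 to 0.12 in the clones, and the groups overlapped (difference 0.39, exact permutation test, p = 0.214, adjusted p = 0.214). Without WT-2 the difference of this pair was 0.06. With a library left out, none of these 3 pairs reached an adjusted p below 0.0714, and 3 libraries of 1 clone against 3 of WT cannot reach a p below 0.1.

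**Figure D4:**
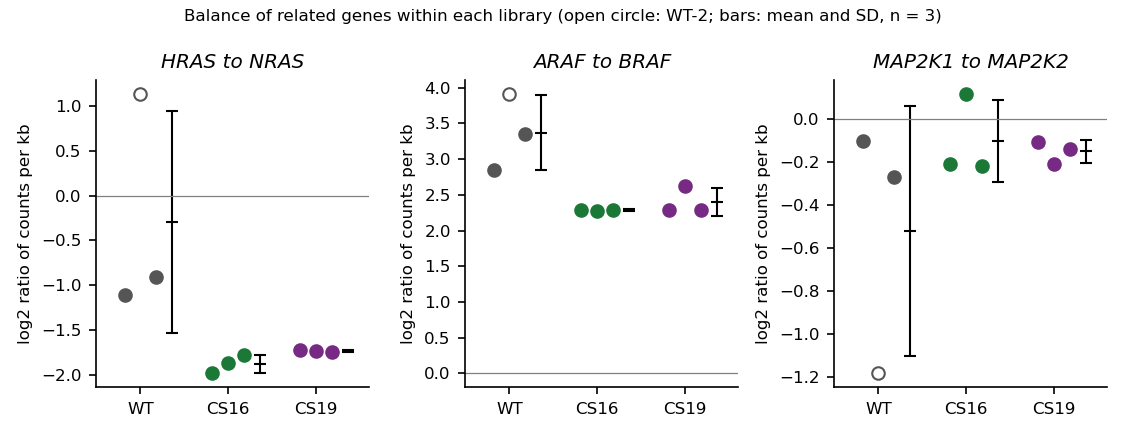
Log2 ratio of counts per kilobase (y axis) of 3 pairs of related genes in each library of WT, CS16 and CS19 (x axis), with the mean and SD of the 3 libraries beside the points and WT-2 as an open circle. *HRAS* to *NRAS* and *ARAF* to *BRAF* lie lower in all clone libraries than in all WT libraries, while the groups overlap for *MAP2K1* to *MAP2K2*.

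To compare genes with each other, counts were divided by gene length and scaled to transcripts-per-million values (TPM). By the lengths in the files, *NRAS* led in every group, at 154 ± 69.1 TPM in WT, 206 ± 27.2 TPM in CS16 and 194 ± 16.2 TPM in CS19 (SD, n = 3 each). In WT, *MAP2K2* followed at 128 ± 68.3 TPM and *HRAS* at 120 ± 42.5 TPM, and the ranges of neighbours among these 3 genes overlapped, as did those of *MAP2K1* at 82.2 ± 8.72 TPM and *ARAF* at 81.7 ± 33.2 TPM. *MAPK3* at 17.8 ± 6.48 TPM and *BRAF* at 7.63 ± 1.65 TPM stood apart from their neighbours. In the clones *MAPK3* had left its place near the bottom, at 50.2 ± 6.87 TPM in CS16 and 53.0 ± 12.5 TPM in CS19, and its range overlapped those of its neighbours in the order. *MAP2K2*, *MAP2K1*, *HRAS*, *MAPK3* and *ARAF* then lay between 38.4 and 66.2 TPM in CS16 and between 39.7 and 58.2 TPM in CS19, with overlapping ranges from each gene to the next. The order depends on the length used. The length of *BRAF* in the files is 23433 bases against 6459 for its canonical transcript, and that of *MAP2K2* 5229 against 1727. With canonical lengths *MAP2K2* led in WT at 244 TPM ahead of *HRAS* at 172 TPM and *NRAS* at 96.0 TPM, and *BRAF* was lowest in each group under both lengths, at 17.3 to 17.5 TPM with the canonical one.

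Counting took no account of strand, so reads of overlapping genes on the other strand cannot be told apart. Such exons made up 10.9% of the exonic bases of *MAP2K1* (with *SNAPC5* and ENSG00000261351), 5.29% of *BRAF* (with *NDUFB2*) and 0.235% of *ARAF* (with *SYN1*), and none of the other 4 genes.

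For each of the 7 genes, the genes most like it in log2 CPM over the 9 libraries were *SLC2A6* (Pearson 0.997) for *HRAS*, *APPBP2* (0.998) and *KIAA1586* (0.996) for *NRAS*, *LINC01359* (0.961) and *RRH* (0.943) for *BRAF*, *TPX2* (0.996) and *CENPBD2P* (0.995) for *ARAF*, *MRTO4* (0.983) and ENSG00000277287 (0.980) for *MAP2K1*, *LY6E* (0.997) and *NMRAL1* (0.994) for *MAP2K2*, and *DLX2-DT* (0.997) and *SLC29A4* (0.996) for *MAPK3*. These were among the highest of 19631 genes, and the 9 points share the group difference and the WT-2 deviation. No gene of the cascade was among them.

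The other genes of the pathway were grouped into 9 lists, chosen with results of these data known. Of 108 genes that were tested, 25 were higher and 56 lower in the clones, where 31.0% and 32.5% of all genes were. The study's cut-offs were met by 7 higher and 31 lower genes (12.6% and 14.3% of all genes), 38 in all. With DESeq2, 34 genes of the lists met them. Over all genes 5215 did with DESeq2, beside 5271 with edgeR. Their median log2 fold change was -0.59. The plot of log2 fold changes by list sets them beside the 7 core genes. Without WT-2, 27 were higher and 61 lower, where 33.9% and 33.2% of all genes were. These last shares also apply to the counts without WT-2 of each list below.

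Among 8 other core genes, 3 were higher and 3 lower (31.0% and 32.5% of all genes). *KSR2*, a scaffold that holds RAF and MEK together, had 0 or 1 counts in the WT libraries and 19 to 91 in the clones. *RRAS*, a RAS relative linked to integrin adhesion, fell from 30.2 to 2.15 CPM (log2 fold change -3.81, SE 0.28, adjusted p = 3.75e-07), and its relative *RRAS2* fell too (log2 fold change -0.92, SE 0.24, adjusted p = 0.00576). Without WT-2, 4 of these genes were higher and 3 lower.

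RAS is loaded with GTP by exchange factors and switched off by GTPase-activating proteins. Of 8 exchange factors, 3 were higher and 3 lower (31.0% and 32.5% of all genes). On the log2 scale *RASGRF2* at 4.85 (from 0.419 to 12.3 CPM) and *RASGRP2* at 2.52 (from 0.235 to 1.34 CPM) lay above WT. *RASGRP2* had only 0 to 8 counts in the WT libraries and 25 to 40 in the clones. *RASGRP3* at -2.998 and *RASGRF1* at -2.78 lay below it. Without WT-2, *RASGRP2* was at 3.36 and *RASGRF1* at -2.12. Without WT-2, 2 exchange factors were higher and 3 lower. Of 7 GTPase-activating proteins tested, 5 were lower (32.5% of all genes) and 1 was higher (31.0%), and their median was -1.69 on the log2 scale. *DAB2IP* fell from 194 to 24.4 CPM (-2.99), *RASA3* from 96.6 to 12.5 CPM (-2.95) and *RASA1* from 173 to 53.7 CPM (-1.69), and *DAB2IP* was at -1.97 without WT-2. *NF1*, the neurofibromin gene, rose by 0.91 (SE 0.15, adjusted p = 0.000270). With GC offsets the *NF1* difference was 0.48 and no longer passed (adjusted p = 0.0572). In that fit 6 GTPase-activating protein genes were lower and none higher, where 68.3% of all genes passed.

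Of 10 receptor adaptors, 1 was higher and 5 lower (31.0% and 32.5% of all genes). *SHC3* fell from 73.8 to 0.946 CPM (log2 fold change -6.28) and *SHC1* from 144 to 30.1 CPM (-2.26), whereas *GAB1* rose by 0.72. Without WT-2 the counts were 2 higher and 7 lower. Of 10 genes for the lipid tails and trafficking of RAS, 5 were higher and 3 lower (31.0% and 32.5% of all genes). None met the study's cut-offs with edgeR or DESeq2 (26.9% of all genes met them with edgeR). An unadjusted p below 0.05 was found for 8, as for at least 63.5% of all genes. The depalmitoylating thioesterases moved apart, *LYPLA1* higher at 1.41 and *LYPLA2* lower at -1.18 on the log2 scale. *GOLGA7*, a subunit of the palmitoyltransferase for HRAS and NRAS, rose by 0.73, and the protease *RCE1* was lower at -0.61, a difference that did not pass with GC offsets (-0.22, adjusted p = 0.191). *FNTA* and *FNTB*, the subunits of farnesyltransferase, rose by 0.71 and 0.62.

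Of 17 scaffolds and regulators of RAF and MEK that were tested, 4 were higher and 6 lower (31.0% and 32.5% of all genes). *PAQR3*, which holds RAF at the Golgi, rose by 1.34 and *LAMTOR2*, part of the late endosomal MEK scaffold, by 0.95, while *CNKSR1* fell from 4.25 to 0.826 CPM (-2.34) and *PEA15*, which keeps ERK in the cytoplasm, from 226 to 74.8 CPM (-1.60). Without WT-2, *CNKSR1* was at -1.54. *PEBP1*, an inhibitor of RAF, rose by 0.91. Of 14 kinases and transcription factors that ERK phosphorylates, 2 were higher and 9 lower (31.0% and 32.5% of all genes). Their median was -0.77, and -0.43 without WT-2. *RPS6KA6* rose by 4.40 (from 1.02 to 21.9 CPM) and *RPS6KA5* by 1.29, while the ETS factors *ETS1* and *ELK3* fell from 186 to 6.46 CPM (-4.85) and from 123 to 14.2 CPM (-3.12).

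In the parallel MAP kinase cascades 5 of 16 genes were higher and 5 lower (31.0% and 32.5% of all genes). *MAP2K6* rose from 3.74 to 41.8 CPM (3.48) and *MAP2K3* fell from 67.5 to 12.3 CPM (-2.45), and these encode the kinases above p38. Without WT-2, *MAP2K3* was at -1.42, short of the study's cut-off. The p38 gene *MAPK13* fell from 94.1 to 0.555 CPM (-7.41). *MAPK4* had 0 counts in each WT library and 59 to 137 in the clones, a level at least 21.5-fold higher against a floor of 3 counts per library.

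The ERK output genes differed most. Of 18 genes known to follow ERK activity, 17 were lower and 1 higher, and the 17 also met the study's cut-offs (14.3% of all genes met them in this direction), at a median log2 fold change of -5.30. With DESeq2, 15 met them, and the other 2 had no adjusted p there. *DUSP6*, the ERK phosphatase, fell from 135 to 0.228 CPM (log2 fold change -9.19, SE 0.35, adjusted p = 2.37e-09), with 1454 to 3259 counts in WT and 1 to 7 in the clones. *SPRY4*, a feedback inhibitor above RAF, had 1164 to 2263 counts in WT and 0 to 3 in the clones. Log2 fold changes were -7.01 for the phosphatase gene *DUSP4* and -6.93 and -7.59 for the ETS factors *ETV4* and *ETV5*. In the clones *ETV4* and *ETV5* were left at 0.436 and 0.412 CPM. *EPHA4* was the exception and rose by 1.19 (SE 0.18, adjusted p = 0.000143). The counts past the adjusted p were the same without WT-2 and with GC offsets. In the same libraries the basal B markers fell together too, 8 of 8 (32.5% of all genes) at a median of -5.12. Their part in the fall of the output genes was not tested.

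**Figure D5:**
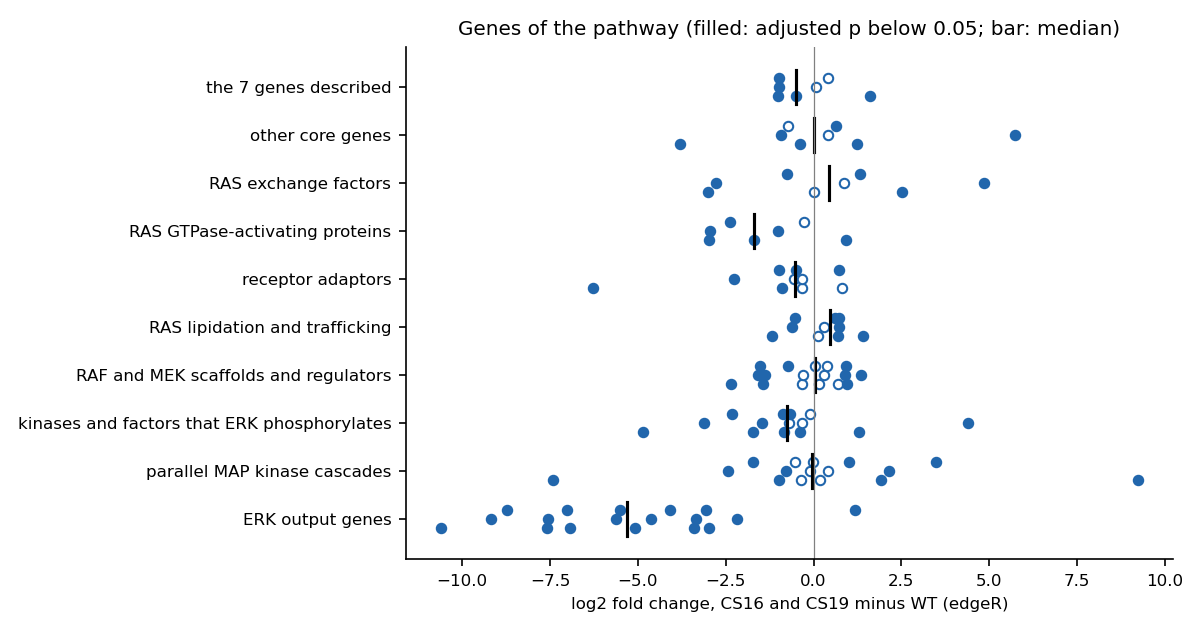
Log2 fold changes of the clones against WT (x axis) for the 7 core genes and the tested genes of 9 pathway lists (y axis), 1 point per gene, filled where the adjusted p was below 0.05, with a bar at the median of each list. The ERK output genes lie between -10.6 and -2.18 apart from *EPHA4* at 1.19, while the 7 core genes lie between -0.9998 and 1.61.

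Between the clones, *CCND1*, the cyclin D1 gene, differed most among the genes of these lists, with 89.3 CPM in CS16 and 11.3 CPM in CS19 (log2 fold change 2.99, adjusted p = 3.19e-12), and 5 of 15 output genes tested were higher in CS16 and none lower. Over all lists, 23 of 105 tested genes were higher and 12 lower in CS16 than in CS19, where 14.9% of all genes were higher and 27.9% passed. In the shared fit, 4 were higher and 2 lower, and calls over all genes fell from 4893 to 633.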

How the data were processed

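The 9 libraries were prepared from total RNA depleted of ribosomal RNA with a stranded kit and read as pairs. Reads were trimmed by the authors with Trimmomatic 0.36 and aligned to GRCh38.p13 with STAR 2.7.2b in a 2-pass mode, and pairs were counted on gencode release 38 with featureCounts of Subread 2.0.0, requiring both mates, no chimeras and a mapping quality of at least 30, without the strand option. Versions come from the submitters' processing notes. The deposited values were raw counts per gene, not normalized and not pooled, and totals were 19527195 to 28627777 per library. A floor of 3 counts was a CPM of 0.105 to 0.154. Reads carried no molecular identifiers, so floors cover counting error only. No libraries of a group agreed within sampling noise (lowest chi-square over degrees of freedom 4.78).

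The members and the gene lists were chosen with earlier results of these data known, and so were the comparisons and the tests. Groups were taken from the labels. Genes passed filterByExpr in edgeR 4.0.16 (R 4.3.3, limma 3.58.1), were normalized by TMM and tested with the robust quasi-likelihood test, with SE from the fold change and its F statistic and p-values adjusted over all genes tested. The clones together, each clone and the clones against each other were fitted separately. CPM in the text used TMM factors over the 9 libraries. Pair ratios were tested with an exact permutation test in Python 3.11.15 with scipy 1.17.1. Alternatives were DESeq2 1.42.0, RLE and upper-quartile scaling, no filter, at least 10 counts in 3 libraries, a replicate block, 1 fit shared by all groups, no 100 most abundant genes, 1 count added to each count of a ratio, and each library left out. Offsets for 20 GC bins and canonical transcript lengths were added after the data were seen. GC content, exons and canonical lengths came from gencode release 44 and promoter windows from RefSeq on GRCh38.p14.

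Named genes were the 7 core genes, for each of them the 2 tested genes with the highest Pearson correlation of log2 CPM (prior count 2), for each list the 2 largest rises and falls among genes past the test, and *SNAI1*, *CDKN2A*, *CDKN2B* and *MTAP* as checks of the labels. *CDKN2B* had 0 counts in WT and 235 to 326 in the clones. *RASA1*, *FNTA*, *FNTB*, *PEBP1*, *DUSP4*, *ETV4*, *ETV5* and *CCND1* were named outside this rule, after their values were seen. Counts were simulated with 200 changed genes among 13074. For the clones against WT, edgeR recovered 100 of 100 genes changed by a log2 of 1 and 100 of 100 changed by 2. There were 8 false calls. At a log2 of 1, recovery was 100 of 100 for CS16 and 96 of 100 for CS19 against WT. False calls were 11 and 10. Between the clones recovery was 98 of 100 among 13073 genes, with 10 false calls. Recovery at the spread of the real WT libraries, WT-2 included, was not tested. Some genes, and 1 of the 4 pair ratios, are not reported here. Protein and phosphorylation were not analysed here.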

Additional observations from a re-analysis of the deposited data

Results flagged for a closer look

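Within the 6 clone libraries, CS19-2 was far above the others for *ARAF* at 51.3 CPM, for *MAPK3* at 74.3 CPM and for the log2 ratio of *ARAF* to *BRAF* at 2.62. CS16-2 was far above the others for the log2 ratio of *MAP2K1* to *MAP2K2* at 0.12. Of 11 such groups of 6 libraries checked (Dixon's criterion, critical value 0.625), 4 held such a value, and chance gives about 1 in 20; the measures overlap, since the ratios use the same counts.

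*MAP2K1* and *MAP2K2* differed between the clones, by 0.26 (adjusted p = 0.0192) and 0.21 (adjusted p = 0.0452) on the log2 scale from CS19 to CS16. The adjusted p over the alternatives ran from 0.00844 to 0.453 for *MAP2K1* and from 0.00646 to 0.876 for *MAP2K2*.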

How the results depend on the processing

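With the clones together, 5 of 7 genes passed under each alternative except no filter, where 4 did, and under each library left out (5 to 5). The study's cut-offs were met by 0 genes under these, and by 1 gene with GC offsets in each comparison with WT, since *MAPK3* then exceeded 2. For CS16 against WT the main count of 3 became 5 in the shared fit and ran from 2 to 5 with a library left out. Calls over all genes were 10237 in the main fit, 12057 in the shared fit and 8347 to 14090 with a library left out. For CS19 against WT the count of 5 ran from 1 to 5 with a library left out, and was lowest in the fits with fewer CS19 libraries. For CS16 against CS19 the count of 2 became 1 with DESeq2 and 1 with upper-quartile scaling, 0 in the shared fit and 0 with the replicate block, and ran from 0 to 2 with a library left out. Replicate numbers did not pair the libraries, as correlations of deviations between same-numbered libraries ran from -0.206 to 0.190; the block also left 5 genes for the clones together, and the remaining counts under it were 3 for CS16 and 4 for CS19 against WT. The log2 ratio of *HRAS* to *NRAS* ran from -1.92 to -0.80 with a library left out, at adjusted p of 0.0714 to 0.143, and was -1.59 for CS16 alone and -1.45 for CS19 alone (adjusted p = 0.2, which 3 against 3 cannot pass). That of *ARAF* to *BRAF* ran from -1.29 to -0.76 and was -1.09 for CS16 alone and -0.97 for CS19 alone. These losses follow from fewer splits of fewer libraries. Of 441 fold changes under alternatives, 397 kept direction and call, 30 lost a call, 7 gained one and 7 changed sign, none of them called. With GC offsets *BRAF* turned to -0.35 for the clones together, -0.37 for CS16 and -0.33 for CS19 against WT and -0.0157 between the clones, where *NRAS* also turned to -0.0193. Between the clones *ARAF* ran from -0.157 to 0.0408 and *MAPK3* from -0.178 to 0.0189 with a library left out, both above 0 without CS19 replicate 2. Beyond the GC offsets and the smaller designs the cause was not tested. Each of the 7 genes had 323 counts or more per library. Counting error was small beside the deviation of WT-2, except for *MAP2K1* and *BRAF*, where WT-2 was at 1.05 and 0.975 times the mean of WT-1 and WT-3. That deviation limits the comparisons with WT most for the other 5 genes.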
